A study of Rattus norvegicus with 4 samples.

Results

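The genes described here encode RNA-binding proteins that control which exons of a pre-mRNA are joined, namely the heterogeneous nuclear ribonucleoproteins (hnRNPs), the SR proteins, and the Rbfox, Nova, Elavl, Ptbp, Celf and Mbnl families. They were chosen by symbol alone, as every gene of the array's probe-to-gene table whose symbol begins with Hnrnp or is a numbered Srsf, Rbfox, Nova, Elavl, Ptbp, Celf or Mbnl gene. This gave 47 genes of 14497 measured: 17 Hnrnp, 11 Srsf, 6 Celf, 4 Elavl, 3 Rbfox, 3 Ptbp, 2 Mbnl and 1 Nova gene. Nova2 and Mbnl1 were not analysed here.

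The study asked how poly(A) RNA changes in cultured hippocampal neurons when Gld2, a cytoplasmic poly(A) polymerase that adds adenosines to the tails of selected mRNAs, is knocked down. All 4 samples were primary cultures of rat embryonic hippocampus, 2 treated with Gld2 shRNA and 2 with scrambled shRNA as the control. The labels give no strain, days in culture, virus or shRNA sequence. They also leave unstated whether the replicate cultures were prepared separately, so the p-values refer to the spread between the cultures measured, part of which may be technical. RNA was captured on poly(U) Sepharose and eluted with heat before whole-transcript Affymetrix arrays were run, so the amount of a transcript and how well its tail was retained cannot be told apart.

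SR proteins have a domain rich in arginine and serine, bind mainly exonic enhancers and promote inclusion of the exons they bind. Many hnRNPs act against them by binding silencers, although both classes can act either way depending on where they bind. In neurons a further layer is provided by tissue-restricted regulators: loss of Ptbp1 and gain of Ptbp2 accompany neuronal differentiation, and Rbfox, Nova, neuronal Elavl (Hu), Celf and Mbnl proteins then set neuronal exon patterns. Elavl proteins also bind AU-rich elements in mature mRNAs, where they influence stability and translation. Several SR and hnRNP genes regulate their own mRNA through exons that lead to its decay.

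The targeted gene was lower in the cultures labelled as knockdown: Tent2, the current symbol of Gld2, stood at 9.50 and 9.35 (log2 RMA value) with Gld2 shRNA and at 10.73 and 10.67 with scrambled shRNA (log2 difference -1.28, adjusted p = 0.000754, limma). Replicates of a group correlated at Pearson's r of 0.996 (Gld2 shRNA) and 0.997 (scrambled shRNA) over all probe sets. Of 12 measured interferon response genes, 12 rose, with a median log2 difference of 3.44. All 10 neuronal markers (Tubb3, Map2, Snap25 and others) lay above the array median in every culture. Their mean log2 value was 12.46 in both knockdown cultures and 12.57 and 12.54 in the controls, and 1 of them, Dcx, fell (-0.38, adjusted p = 0.0499, limma). At an unadjusted p under 0.05, 3 of the 10 neuronal markers were lower and none higher. The difference was below 0 for 9 of the 10, as it was for 53.8% of all genes, and the median was -0.03. Both knockdown cultures lay below both controls for 6 of the 10, as they did for 34.5% of all genes. Of 9 astrocyte markers 8 also lay above the array median in every culture, and 1 of the 9 fell, the gap junction gene Gja1 (-0.39). The median difference of the 9 was 0.05, with 5 above 0 and 4 below. At an unadjusted p under 0.05, 2 of them were lower and none higher. Microglia markers had mean values of 7.68 and 7.79 with Gld2 shRNA and of 7.58 and 7.57 with scrambled shRNA. None of the 10 passed the test, and 3 were higher at an unadjusted p under 0.05 (9.24% of all genes). The difference was above 0 for 9 of the 10, as it was for 6699 of all 14497 genes. Of 7 oligodendrocyte lineage markers 1 rose, Cnp (0.54), while Mbp had a difference of -0.29 (adjusted p = 0.0798, limma). Their median was 0.03, and at an unadjusted p under 0.05, 1 was higher and 1 lower. Of 5 excitatory neuron, 6 inhibitory neuron, 6 dividing cell and 9 fibroblast or endothelial markers none passed over all genes. At an unadjusted p under 0.05, 1 excitatory and 2 inhibitory neuron markers were lower and none higher. Among dividing cell markers 1 was higher and 2 lower, and among fibroblast or endothelial markers 3 were higher and 1 lower. Over all genes 9.24% were higher and 16.2% lower at that level. Whether these shifts play a part in the values below was not tested.

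Of the 47 splicing factor genes 1 fell, Elavl4, none rose and 46 did not pass the test, which was limma with Benjamini-Hochberg adjustment over all 14497 genes at 0.05. Over all genes 4.1% were called, 2.41% lower and 1.69% higher, so 1 of 47 is near the background share. The differences of the 47 ran from -0.73 to 0.11 on the log2 scale with a median of -0.10, beside a median of -0.02 over all genes. For 45 of the 47 the 95% confidence interval of the difference, not adjusted for the number of genes, lay within 1.5-fold either way, as it did for 94.5% of all genes. Elavl4 and Srsf12 were the 2 whose interval reached beyond 1.5-fold. Centring each array on its median moved the split of calls over all genes from 245 higher and 349 lower to 218 higher and 94 lower, and Elavl4 remained the only gene of the 47 called.

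**Figure D1:**
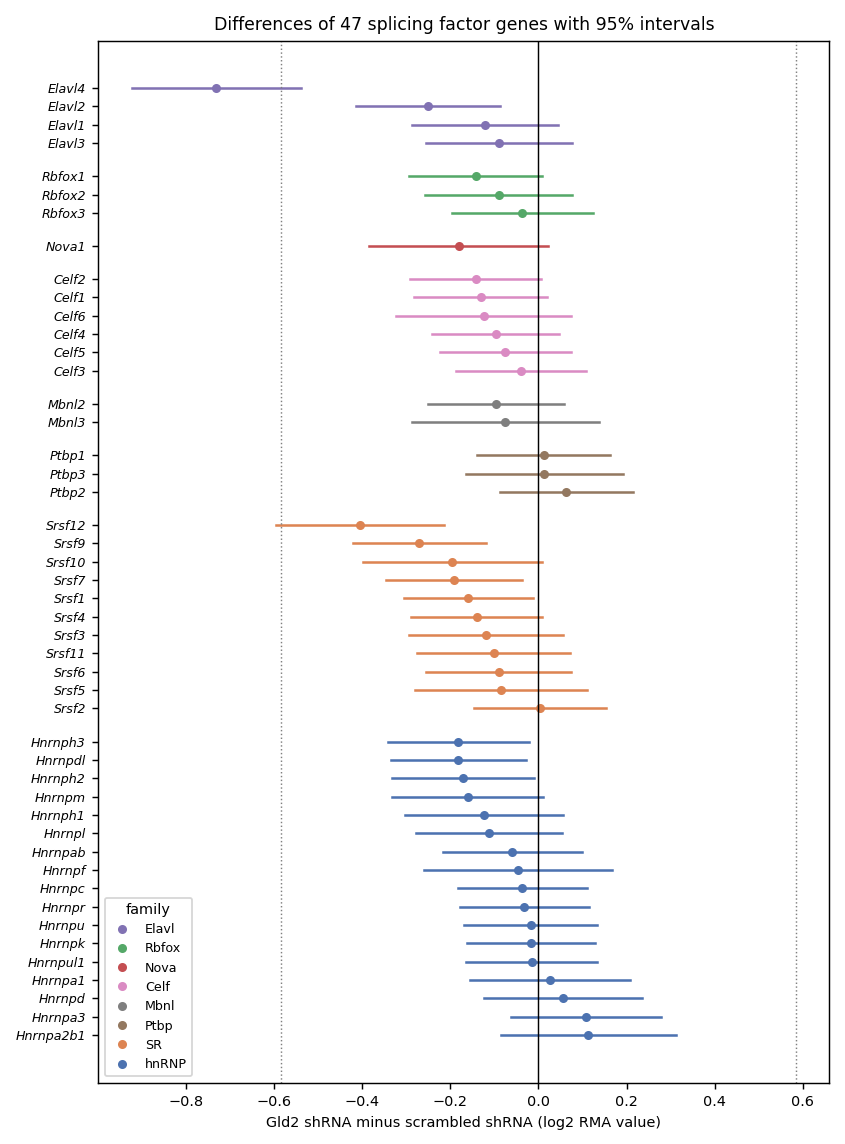
Log2 difference, Gld2 shRNA minus scrambled shRNA, of the 47 splicing factor genes by family (points), with 95% confidence intervals from limma (bars); dotted lines mark 1.5-fold either way. Elavl4 lies at -0.73 with an interval from -0.92 to -0.54, Srsf12 at -0.41, and every other gene between -0.27 and 0.11.

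Elavl4 encodes HuD, a neuron-specific Elavl protein that stabilises mRNAs with AU-rich elements, promotes neurite growth and also regulates neuronal exons. Its probe set (10878712) gave 10.12 and 9.96 with Gld2 shRNA, as against 10.81 and 10.74 with scrambled shRNA. Both Gld2 shRNA cultures lay below both controls, with a gap of 0.61 between the nearest cultures of the groups. Knockdown cultures averaged 10.04 ± 0.116 (SD, n = 2) and controls 10.77 ± 0.0501 (SD, n = 2). The log2 difference was -0.73, its standard error 0.0782 and its adjusted p 0.00933 (limma). On the linear scale this was 60.2% of the control level, or 1.66-fold lower. In a mixed culture, fewer neurons that express Elavl4 and less Elavl4 RNA per neuron cannot be told apart. Without scrambled shRNA replicate 1 or 2 the value was -0.70 and -0.77, and without Gld2 shRNA replicate 1 or 2 it was -0.81 and -0.65. The call was lost without either control culture and kept without either knockdown culture. Without either control culture, lower calls over all genes were also few. Each of these fits leaves 1 culture in a group, so the loss cannot be read as particular to Elavl4.

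The other Elavl genes had smaller differences of the same sign, and none passed the test. Elavl2 (HuB), another neuronal member, stood at 10.74 and 10.80 with Gld2 shRNA and at 11.07 and 10.98 with scrambled shRNA. Its groups did not overlap, and the log2 difference was -0.25 (95% interval from -0.41 to -0.09, adjusted p = 0.0980, limma). Elavl2 was called lower in 3 of 14 alternative settings. These were the prior variance following the level (adjusted p = 0.00577, limma) and genes under the median level or the 25th percentile left out (0.0196 and 0.0490). Lower calls over all genes also rose in these settings, from 349 in the main setting to 1611, 1287 and 949 in that order. Elavl1 (HuR), which is expressed in most cell types, was at 11.15 and 11.11 against 11.31 and 11.20, a difference of -0.12 (adjusted p = 0.307). Elavl3 (HuC), which like HuD marks postmitotic neurons, was at 11.95 and 12.01 against 12.12 and 12.02, a difference of -0.09 (adjusted p = 0.433). All 4 Elavl genes thus had both knockdown cultures below both controls, a pattern that 34.5% of all genes showed, and the sign of each held under cyclic loess, median centring and removal of the length trend. Whether the difference of Elavl4 is larger than those of the other Elavl genes was not tested.

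**Figure D2:**
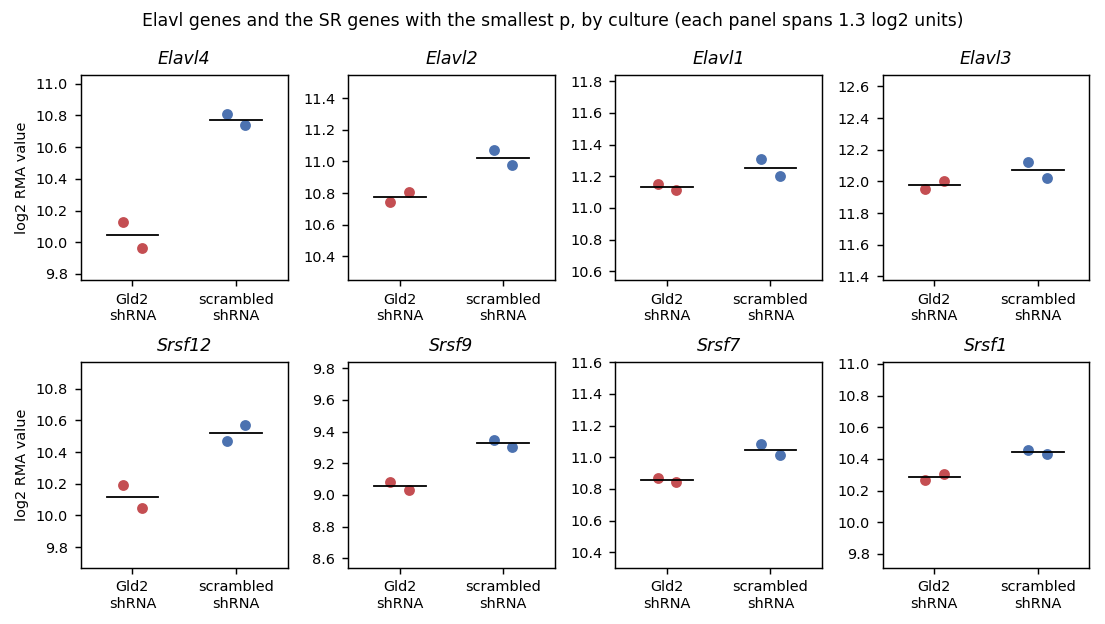
Log2 RMA values of the 4 Elavl genes and of the 4 SR genes with the smallest p in each culture (points; 2 per group), with group means (lines); all panels span the same range of log2 units. The groups do not overlap in any panel, and the gap between them is widest for Elavl4 (0.61), followed by Srsf12 (0.28) and Srsf9 (0.23). The SR genes shown were picked by p, so their lack of overlap follows in part from the choice. Over all genes 34.5% had both knockdown cultures below both controls.

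Among the SR genes none of 11 passed in limma, 4 were lower at an unadjusted p under 0.05 (16.2% of all genes), and 10 of the 11 differences were below 0 (53.8% of all genes), with a median of -0.14. Of these 10, Srsf6 alone turned above 0 under a scaling alternative, at 0.0025 with cyclic loess. The member closest to the threshold was Srsf12, which encodes a small SR protein reported to oppose the activity of other SR proteins. It stood at 10.19 and 10.04 with Gld2 shRNA and at 10.47 and 10.57 with scrambled shRNA, with no overlap. Knockdown cultures averaged 10.12 ± 0.102 (SD, n = 2) and controls 10.52 ± 0.0720 (SD, n = 2), the difference was -0.41 with a standard error of 0.0779 (95% interval from -0.60 to -0.21), and the level was 75.5% of control. Its adjusted p of 0.050002 in limma lay just above the threshold. It was called in 6 of 14 alternative settings, among them removal of the length trend (0.0472) and averaging the probe sets of each gene (0.0493). In the other settings that called it, lower calls over all genes also rose above those of the main setting. With 1 culture left out its value ran from -0.48 to -0.33. Of those fits, only the one without Gld2 shRNA replicate 1 called it.

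Srsf9, an SR protein with a short arginine-serine domain, stood at 9.08 and 9.03 against 9.35 and 9.31 in the controls, a difference of -0.27 (95% interval from -0.42 to -0.12, adjusted p = 0.0723, limma). Srsf9 was not called with cyclic loess or median centring (adjusted p = 0.0907 and 0.135, limma). With 1 culture left out its value ran from -0.29 to -0.25, and of those fits only the one without Gld2 shRNA replicate 1 called it. It was called lower with the prior variance following the level (adjusted p = 0.0305, limma) and with the length trend removed (0.0496). The same held with genes under the median level or the 25th percentile left out (0.0104 and 0.0317). Lower calls over all genes rose from 349 in the main setting to 1611 with that prior variance. They were 1287 and 949 with those dimmer genes left out, and 311 with the length trend removed. Srsf7, which in addition takes part in mRNA export, was at 10.87 and 10.84 against 11.08 and 11.01 (-0.19, adjusted p = 0.137), and was called lower in 2 of 14 alternative settings. Srsf1, the classical splicing factor SF2/ASF, was at 10.27 and 10.30 against 10.46 and 10.43 (-0.16, adjusted p = 0.176). In each of these the groups did not overlap. Srsf10 showed a wider spread between the Gld2 shRNA cultures, at 9.91 and 9.71 against 10.03 and 9.98. It was called only when Gld2 shRNA replicate 1, the higher culture, was left out (-0.29). In that fit, lower calls over all genes also rose above those of the main setting. Srsf4, Srsf3, Srsf11 and Srsf6 had differences from -0.14 to -0.09 and groups that did not overlap. Srsf5 (-0.08) and Srsf2 (0.004) overlapped. Srsf2, also called SC35 and a marker of nuclear speckles, was at 12.16 and 12.20 against 12.16 and 12.19.

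The SR kinases, which phosphorylate the arginine-serine domain and so control where SR proteins reside and when they act, were examined as a separate list. None of 9 passed (limma, adjusted over all genes), 8 of the 9 differences were below 0 (53.8% of all genes), and the median was -0.15. At an unadjusted p under 0.05, 4 were lower and none higher, beside 16.2% of all genes lower and 9.24% higher at that level. These 4 were Clk4 (-0.33, adjusted p = 0.0568), Prpf4b (-0.25), Clk1 (-0.21) and Clk2 (-0.15). Clk4 averaged 9.03 with Gld2 shRNA and 9.37 with scrambled shRNA, and the groups did not overlap. Srpk1 (0.02) and Dyrk1a (-0.01) lay near 0. These kinases were picked for naming after their values were seen.

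Of the 17 Hnrnp genes none passed the test (limma, adjusted over all genes), and their median was -0.04. Their differences ran from -0.18 to 0.11, and for all 17 the 95% interval lay within 1.5-fold either way. At an unadjusted p under 0.05, 3 of the 17 were lower, near the share of 16.2% over all genes, and none was higher. The 3 were Hnrnpdl, a paralog of Hnrnpd that binds AU-rich RNA, and Hnrnph3 and Hnrnph2, of the H/F family that binds runs of guanines. Hnrnpdl stood at 10.72 and 10.68 with Gld2 shRNA and at 10.85 and 10.91 with scrambled shRNA (-0.18, adjusted p = 0.150, limma). Hnrnph3 stood at 9.84 and 9.86 against 10.08 and 9.99 (-0.18, adjusted p = 0.162), and Hnrnph2 at 10.25 and 10.15 against 10.36 and 10.38 (-0.17, adjusted p = 0.179). In all 3 the groups did not overlap. Of 14 alternative settings, Hnrnpdl was called lower in 2, Hnrnph3 in 1 and Hnrnph2 in none. Some alternatives called more genes lower over the whole array, up to 1611 when the prior variance followed the level, beside 349 in the main setting. The further H/F genes, Hnrnph1 (-0.12) and Hnrnpf (-0.05), had smaller values, and those of Hnrnpf overlapped between groups.

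Further Hnrnp genes showed small differences. Hnrnpc was at -0.04, Hnrnpu, a chromatin-associated scaffold protein, at -0.02, and Hnrnpk, which binds runs of cytosines, at -0.02. Hnrnpk stood at 12.76 and 12.75 against 12.76 and 12.78, with a 95% interval from -0.16 to 0.13. The A/B genes were on the other side of 0 or close to it. Hnrnpa2b1, whose protein also carries mRNAs into dendrites, stood at 11.42 and 11.58 with Gld2 shRNA and at 11.44 and 11.34 with scrambled shRNA, and the groups overlapped (0.11, 95% interval from -0.09 to 0.31, adjusted p = 0.414, limma). Hnrnpa3 was at 11.71 and 11.82 against 11.70 and 11.62 (0.11, adjusted p = 0.369), Hnrnpa1, the most studied antagonist of SR proteins, at 11.50 and 11.63 against 11.58 and 11.49 (0.03), and Hnrnpd (AUF1) at 0.06. Hnrnpa1 turned below 0 with the length trend removed (-0.04), and Hnrnpab, Hnrnpc, Hnrnpr, Hnrnpf, Hnrnpu, Hnrnpk and Hnrnpul1 turned above 0 with median centring, so no direction can be given for these.

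For 5 Hnrnp genes the array had more than 1 probe set, and the one with the highest mean was used. The 8 probe sets annotated to Hnrnpa3 ranged in log2 difference from -0.26 to 0.32. The 3 of Hnrnpa1 gave 0.03, -0.05 and -0.10, and the mean of its probe sets -0.04. The second probe sets of Hnrnpa2b1 (0.01), Hnrnpf (-0.11) and Hnrnpk (-0.003) had the same sign as the chosen ones. None of these 17 probe sets passed when all probe sets were tested (smallest adjusted p = 0.255, limma). Genes of the A/B group have near-identical copies elsewhere in mammalian genomes, so their values may include signal of more than 1 locus.

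None of the Rbfox, Nova, Celf and Mbnl genes passed the test, although Rbfox1 and Celf2 were called lower when the prior variance followed the level (adjusted p = 0.0462 and 0.0132, limma). Rbfox1 was at 11.53 and 11.46 with Gld2 shRNA and at 11.63 and 11.64 with scrambled shRNA, without overlap (-0.14, 95% interval from -0.29 to 0.01, adjusted p = 0.214, limma). Rbfox2, which is also expressed outside neurons, was at -0.09, and Rbfox3, which encodes the neuronal nuclear antigen NeuN, at 11.94 and 11.93 against 12.02 and 11.93 (-0.04), with overlap. With the trend of the values against gene length removed, all 3 lay above 0, at 0.09, 0.05 and 0.12 in the order Rbfox1, Rbfox2 and Rbfox3, and Rbfox3 was also above 0 with median centring (0.03). Rbfox genes are long (243672 to 2095840 bp against a median of 18043 bp over all genes). Nova1, which regulates exons of synaptic proteins, was at 10.25 and 10.29 against 10.55 and 10.35 (-0.18, 95% interval from -0.38 to 0.02, adjusted p = 0.231), with the controls farther apart than the groups' nearest cultures.

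Celf and Mbnl proteins often act on the same exons in opposite directions, as is known from myotonic dystrophy. None of the 6 Celf genes passed or reached an unadjusted p under 0.05 in limma, all 6 had both Gld2 shRNA cultures below both controls (34.5% of all genes did), and their differences ran from -0.14 to -0.04. Celf2 had the smallest p, at 12.56 and 12.53 against 12.66 and 12.71 (-0.14, adjusted p = 0.208, limma), and Celf1 was at 11.24 and 11.19 against 11.33 and 11.37 (-0.13, adjusted p = 0.238). Celf2 and Celf4 turned above 0 with the length trend removed (0.05 each), and Celf3 with median centring (0.03). Mbnl2 was at 11.64 and 11.58 against 11.73 and 11.69 (-0.10), and Mbnl3, at 6.79 and 6.95 against 6.88 and 7.02, overlapped (-0.08). Both turned above 0 with the length trend removed (0.02 each). Mbnl3 was the only gene of the 47 under the 25th percentile of mean level.

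None of the 3 Ptbp genes passed the test or reached an unadjusted p under 0.05 in limma. Ptbp1, the repressor of neuronal exons found in progenitors and glia, was at 11.40 and 11.34 with Gld2 shRNA and at 11.34 and 11.37 with scrambled shRNA (0.01, 95% interval from -0.14 to 0.16, adjusted p = 0.919, limma). Ptbp2, its paralog of young neurons, was at 11.38 and 11.34 against 11.27 and 11.32 (0.06, 95% interval from -0.09 to 0.21, adjusted p = 0.555), a small difference without overlap. Ptbp3 was at 10.50 and 10.39 against 10.48 and 10.38 (0.01). Ptbp2 kept its sign under every scaling alternative, and Ptbp1 turned to -0.04 with the length trend removed.

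**Figure D3:**
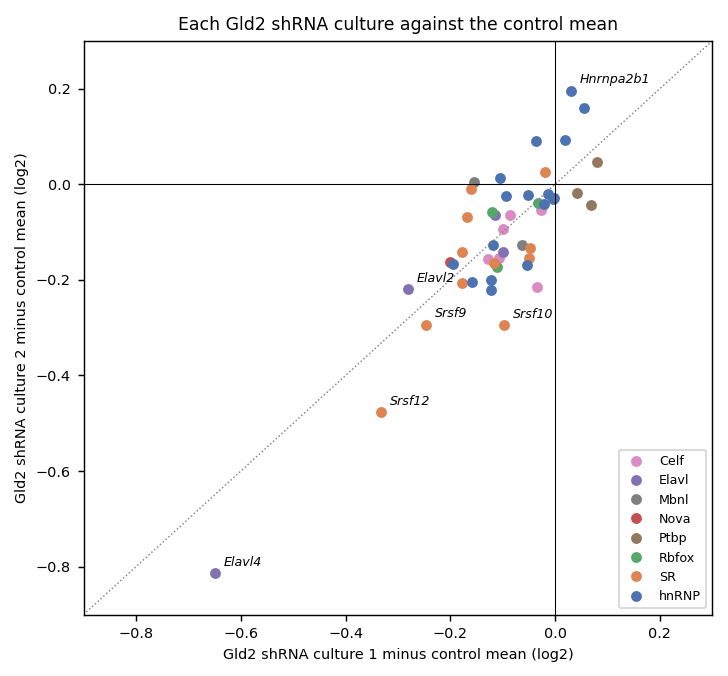
Log2 difference of each splicing factor gene from the mean of the scrambled shRNA cultures, in Gld2 shRNA culture 1 (horizontal) and culture 2 (vertical); the dotted line marks equal values and colours mark families. Both axes share the same controls, so the alignment along the line is partly built in; Elavl4 (-0.65 and -0.81) and Srsf12 (-0.33 and -0.48) lie apart from the rest in both cultures.

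Over the 47 genes the differences were small, and 39 were below 0, 83.0% of them, as were 53.8% of all genes. Both Gld2 shRNA cultures lay below both controls for 32 genes and above them for 2, Hnrnpa3 and Ptbp2, beside 34.5% and 24% of all genes, while 13 overlapped. At an unadjusted p under 0.05, 9 were lower and none higher, where 16.2% of all genes were lower and 9.24% higher, so the count of lower genes is near the background share. Against the control mean the median of the 47 was -0.10 in Gld2 shRNA culture 1 and -0.09 in culture 2. These counts moved with the scaling: 34 of 47 were below 0 with cyclic loess, 33 with the length trend removed and 30 with median centring, beside 49.0%, 55.1% and 36.1% of all genes. The signal level moves with this count as well. In all, 46 of the 47 genes lay above the median of mean levels, where 67.5% of all genes had values below 0 and the median was -0.06, beside -0.10 for those 46. By decile of mean level, 29 of the 47 lay in deciles 9 and 10, the highest. The medians of all genes there were -0.05 and 0.006, beside -0.11 (13 genes) and -0.04 (16 genes) for those of the 47. By genomic length, the 15 genes of up to 10000 bp had a median of -0.09 and the 9 of at least 100000 bp one of -0.14. All genes were also ranked by length and cut into deciles. In decile 10, the longest, the median of all genes was -0.12, beside -0.14 for the 9 of the 47 in it. In deciles 2, 3 and 4 the medians of all genes were 0.06, 0.03 and 0.01. Those of the 47 there were 0.004 (1 gene), -0.17 (10 genes) and -0.02 (5 genes). Spearman's rho between length and difference was -0.07 across the 47 genes, which share arrays and are not replicates. The part of level and length in the low values was not tested.

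The remaining splicing machinery was examined in 2 further lists. Among 54 other splicing regulators, such as Tra2a, Khdrbs and Rbm proteins, none passed (limma, adjusted over all genes), 44 were below 0, as were 53.8% of all genes, and the median was -0.08. At an unadjusted p under 0.05, 12 were lower and 2 higher, beside 16.2% and 9.24% of all genes. The 2 with the smallest p, named after their values were seen, were Rbpms, which encodes a splicing regulator of smooth muscle (0.30, adjusted p = 0.0507), and Sfswap, a regulator with an arginine-serine domain (-0.31, adjusted p = 0.0515). Among 65 core spliceosome genes, which encode proteins of the small nuclear ribonucleoproteins and their helpers, none passed, 48 were below 0, and the median was -0.08. At an unadjusted p under 0.05, 14 were lower and 3 higher, beside the same shares of all genes, and the values ran from -0.33 (Crnkl1) to 0.30 (Snrpd2). No test of the 47 genes against these lists was made.

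**Figure D4:**
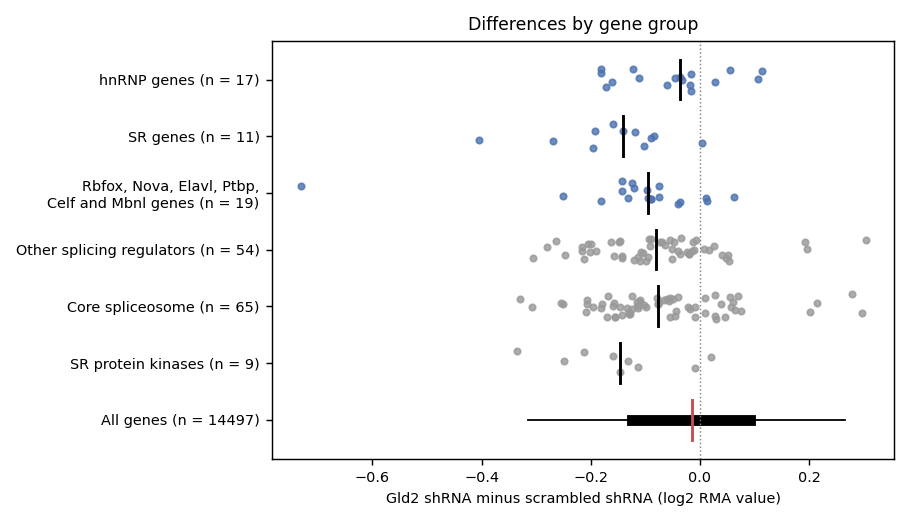
Log2 differences of single genes (points) in the hnRNP, SR and neuronal families and in 3 further lists of splicing genes, with list medians (vertical bars); for all 14497 genes the thick bar spans the middle 50% and the thin line the 5th to 95th percentiles (-0.31 to 0.27). The medians are -0.04 for hnRNP, -0.14 for SR and -0.10 for the 19 other family genes, and Elavl4 and Srsf12 are the only 2 of the 47 genes below the 5th percentile.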

How the data were processed

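Each of the 4 samples was 1 array. Per the submitters' processing notes the authors made the deposited log2 values with RMA and the affy package; RMA subtracts background, gives all arrays 1 distribution and combines the probes of a set, which removes shifts shared by all genes. Its version, its probe set definition and the genome build were not given in the sources used here. That the scale is log2 follows from the range of values (3.23 to 14.3). No detection calls or batches were used here, and precision is limited by the number of arrays. Levels of different probe sets are not comparable.

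Of 28826 probe sets, 15209 had 1 gene symbol, 306 several and 13311 none. For each of 14497 genes the probe set with the highest mean was kept. All 47 genes matched the RefSeq gene table of GRCr8, used for genomic length only. Groups were compared with two-sided tests by lmFit and eBayes (limma 3.58.1, R 4.3.3), with 2 residual and 3.96 prior degrees of freedom and Benjamini-Hochberg adjustment over all genes. The method was tested on simulated data. Values by culture were given for called genes and, in each family, for the genes with the smallest p and the largest difference, with further genes added to show ranges. Genes and lists were chosen with earlier results of these data known. Alternatives changed the prior variance, the filter on dim genes, the scaling (cyclic loess, median centring, or a lowess trend with gene length removed, span 0.3), the handling of probe sets, moderation, the threshold, a replicate block by title digit, and the cultures included.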

Additional observations from a re-analysis of the deposited data

How the results depend on the processing

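The count of genes called higher was 0 in the main setting and in all alternatives. The count called lower was 1 (Elavl4), and it was also 1 with cyclic loess, with median centring, with all probe sets tested, and at an unadjusted p under 0.05 with 1.5-fold. It was 8 when the prior variance followed the level, 7 and 4 with genes under the median level or the 25th percentile left out, 3 with the length trend removed, 2 with probe sets averaged per gene, 4 at an adjusted p under 0.1 and 0 without moderation across genes, where Elavl4 had an adjusted p of 0.267. Lower calls over all genes moved as well, from 349 in the main setting to 1611 when the prior variance followed the level. With genes under the median level or the 25th percentile left out they were 1287 and 949. They were 311 with the length trend removed, 362 with probe sets averaged and 0 without moderation. The counts of the 47 cannot be read apart from these totals. The count without 1 culture is not given, since such a fit leaves 1 culture in a group and its calls over all genes varied widely. Elavl4 kept its sign throughout, between -0.81 and -0.62. The median of -0.10 was -0.025 with median centring, and -0.12 to -0.070 without 1 culture. The final digits of the sample titles do not show that cultures were paired (correlation of deviations 0.14 over all genes, with 1 pair per digit). With them as a replicate block 0 genes were higher and 1 lower, with a median of -0.10, and no call changed.

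Some genes changed sign, none of them called in the main setting or in the setting where the sign changed, although Celf2 (-0.14) and Rbfox1 (-0.14) were among the 8 called when the prior variance followed the level. With the length trend removed the values were Celf2 0.046, Celf4 0.045, Hnrnpr 0.015, Hnrnpa1 -0.037, Hnrnpul1 0.012, Mbnl2 0.019, Mbnl3 0.016, Ptbp1 -0.036, Rbfox1 0.086, Rbfox2 0.046, Rbfox3 0.12 and Srsf2 -0.078. With median centring they were Celf3 0.030, Hnrnpab 0.010, Hnrnpc 0.033, Hnrnpr 0.038, Hnrnpf 0.024, Hnrnpu 0.052, Hnrnpk 0.053, Hnrnpul1 0.054 and Rbfox3 0.033. With cyclic loess they were Hnrnpr 0.074, Hnrnpf 0.023, Hnrnpu 0.016, Hnrnpul1 0.012 and Srsf6 0.0025, and with probe sets averaged Hnrnpa1 was -0.043. Without 1 culture the ranges crossed 0 for Hnrnpd (-0.011 to 0.12), Hnrnpf (-0.14 to 0.047), Hnrnpa1 (-0.037 to 0.091), Hnrnpu (-0.046 to 0.0097), Hnrnpul1 (-0.039 to 0.0074), Mbnl3 (-0.16 to 0.0046), Ptbp1 (-0.018 to 0.042), Ptbp3 (-0.043 to 0.069), Rbfox3 (-0.086 to 0.012) and Srsf2 (-0.019 to 0.026). The causes were not tested. Fits without 1 culture assume that the lone culture of a group varies like the other group.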
